A study of Mus musculus with 9 samples.

Results

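The 47 genes described here are BMP and TGF-beta pathway genes, chosen by name: 17 ligands, 11 receptors, 10 Smads and Smurfs, 4 Id genes and 5 antagonists. The genes were looked up in the list of accessible regions that the 3 wild-type control libraries had in common, and every distinct region assigned to a member was counted. Of the 47 genes, 37 had at least 1 region and 10 had none. They held 80 of the 17164 distinct regions, which were assigned to 11541 genes in all.

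The study asked how loss of Isl1, a LIM-homeodomain transcription factor of cardiac progenitor cells (CPCs), or of Brg1, the ATPase of the SWI/SNF chromatin remodeling complex, alters chromatin opening in the early heart. Open chromatin was mapped by ATAC-Seq, which uses Tn5 transposase to cut and tag accessible DNA, in hearts and pharyngeal mesoderm dissected from mouse embryos at E8.75 (6 somites). The 9 libraries comprised 3 from wild-type embryos, 3 from embryos without Isl1 (Isl1-/-) and 3 from Isl1Cre+/-/ Brg1fl/fl embryos, in which Cre expressed from the Isl1 locus removes Brg1 in Isl1-expressing cells and their descendants. For each region the control list gives its position, 1 assigned gene and how far away that gene's transcription start site (TSS) is. Heights, scores and values per library are not part of it, so the sequencing depth is unknown and a replicate error cannot be given for any value. The libraries of both mutant genotypes were not analyzed here. The methods name 3 embryos of each genotype for the 3 libraries. In this mixed tissue, a region open in few cells and a region weakly open in all cells cannot be told apart.

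BMPs, activins, Nodal and TGF-betas are secreted dimers that bring together type I and type II serine/threonine kinase receptors. The activated type I receptor phosphorylates receptor Smads, Smad1, Smad5 and Smad9 for the BMP branch and Smad2 and Smad3 for the TGF-beta and activin branch, and these enter the nucleus with Smad4. BMP signals from the surrounding tissues are known to promote cardiac differentiation, and TGF-beta and BMP signals drive the later formation of the heart cushions. The pathway limits itself through inhibitory Smads, Smurf ubiquitin ligases and secreted antagonists, and the Id genes, which encode inhibitors of bHLH factors, are its best known direct targets.

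The sequences below are shown because nuclear Smads bind short DNA words. The BMP Smads bind GC-rich words such as GGCGCC, Smad4 binds GTCT, and in known BMP response elements the GC-rich word is followed by GTCT after 5 bases. Both strands were searched for this pair, with the left word written GNCGNC, of which GGCGCC is itself one case. Capitals mark the pair in the first 3 sequences and GGCGCC in the last 2, and each run of 120 bases is from mm9. The region 3.2 kb upstream of Id3 is on the plus strand at chr4:135696402-135696521, the region 3.1 kb upstream of Id2 on the minus strand at chr12:25783666-25783785, and the region 77 kb downstream of Bmp7 on the minus strand at chr2:172688913-172689032. The regions at the starts of Id2 (chr12:25781126-25781245) and Id4 (chr13:48356280-48356399) are given on the plus strand.
Id3 upstream: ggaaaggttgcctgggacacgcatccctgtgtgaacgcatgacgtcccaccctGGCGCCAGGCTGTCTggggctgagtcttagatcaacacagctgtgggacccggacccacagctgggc
Id2 upstream: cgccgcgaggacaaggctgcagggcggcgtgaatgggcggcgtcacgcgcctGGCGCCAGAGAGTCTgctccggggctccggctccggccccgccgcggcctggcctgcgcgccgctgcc
Bmp7 downstream: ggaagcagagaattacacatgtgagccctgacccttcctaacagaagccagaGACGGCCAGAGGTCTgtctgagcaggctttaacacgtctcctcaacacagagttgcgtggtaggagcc
Id2 start: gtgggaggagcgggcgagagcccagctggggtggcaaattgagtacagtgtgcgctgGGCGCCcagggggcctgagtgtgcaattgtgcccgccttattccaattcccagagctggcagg
Id4 start: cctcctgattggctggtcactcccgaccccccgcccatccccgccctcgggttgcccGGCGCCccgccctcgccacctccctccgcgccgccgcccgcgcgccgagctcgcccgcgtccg

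Most members had an open region, and most members with a region had 1 at the gene's start. Of the 47 members, 37 (78.7%, 95% Wilson interval 65.1 to 88.0%) had a region, where 49.3% of 21031 protein-coding genes did. A region centered within 1 kb of the assigned TSS, called a start region here, was found for 30 members (63.8%, 49.5 to 76.0%), against 40.6% of coding genes. The intervals cover counting error only. The members were chosen by name with earlier results of these data known, so no test of these shares was made. Another 7 members had regions only farther away. CpG content was read 500 bp on either side of each annotated start of a member, and the highest value per member was kept. By this value, the 30 members with a start region had a median of 9.99 CpG dinucleotides per 100 bp. The median was 5.09 for the 7 with distant regions only, 5.79 for the 10 with none, and 4.70 for 22225 coding genes of the annotation. CpG content thus moved with the presence of a start region, and its part in the shares was not tested.

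**Figure D1:**
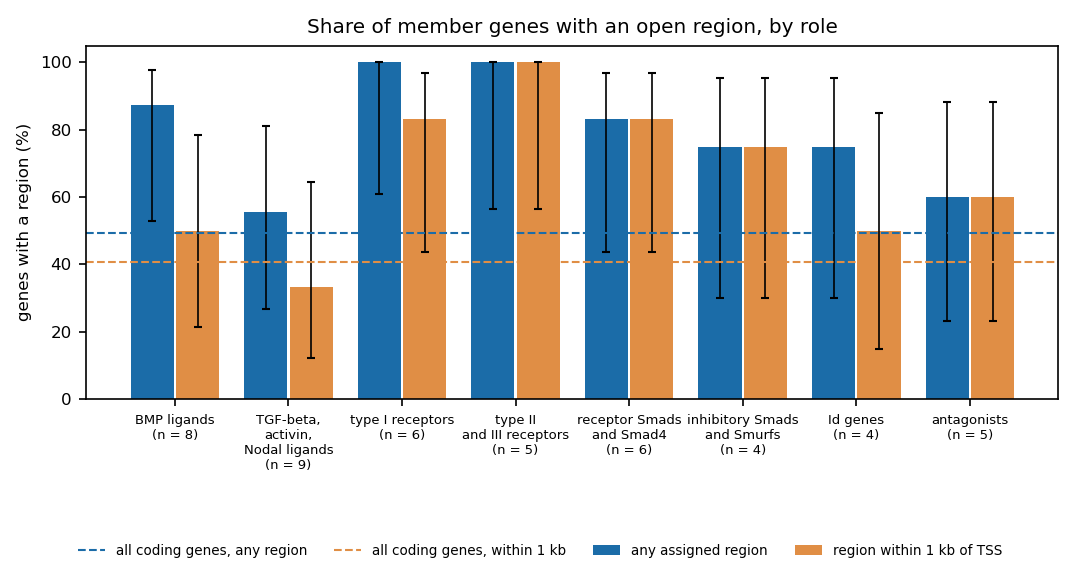
Share of member genes (%) with any assigned region and with a region within 1 kb of the TSS, by role in the pathway. Error bars are 95% Wilson intervals and dashed lines are the shares of all coding genes, 49.3% and 40.6%. Each of the 11 receptor genes had a region, while the TGF-beta, activin and Nodal ligands had the lowest share, 55.6%.

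The tissue label was checked against 36 marker genes. Among 12 markers of cardiac and pharyngeal mesoderm, 6 had a region and 5 had a start region: Isl1 itself had 9 regions, Mef2c 5, Tbx20 and Fgf10 4 each, and Gata4 and Hand2 1 each. These shares, 50% and 41.7%, were near those of all coding genes, 49.3% and 40.6%, so the counts do not mark the tissue. Nkx2-5, Tbx5, Hand1, Tbx1, Tcf21 and Tnnt2, defining genes of heart and pharyngeal mesoderm, had none. Markers of other cells were also present, with a region for 4 of 6 endothelial, 4 of 6 pharyngeal endoderm, 3 of 6 neural and 2 of 6 blood genes, and with a start region for 1, 1, 2 and 0 of them. A marker without a region, or with one, therefore does not place a member's region in a cell type.

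The BMP ligands had regions at 7 of 8 genes, and 12 of their 16 regions lay more than 1 kb from the TSS. Bmp2, a ligand expressed in the atrioventricular canal of the heart, had 5 regions over 229 kb. One of them (chr2:133377336-133379426, 2091 bp, the widest of the BMP ligands) contained the annotated start, and a second began 182 bp beyond it in an exon (chr2:133379609-133381063, 1455 bp). The other 3 were intergenic, at -154409, -205310 and -225342 bp from the TSS, the last being the farthest region of this group. Bmp2 was thus open both over its first exons and in the gene-poor DNA upstream, since the starts of the coding genes on either side of it were 1608 kb apart.

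Gdf6, a BMP-type ligand of joint and eye development, had 4 regions, at -18763, -508, +15456 and +30435 bp, of 799, 1722, 1307 and 995 bp. The region at +15456 bp (chr4:9786322-9787628) lay in an exon of Gdf6 and that at -508 bp (chr4:9770151-9771872) contained the start. Bmp7, which acts with Bmp2 and Bmp4 in the heart, had 3 regions, at -18451, -162 and +77049 bp. Bmp6 had 1 region, 957 bp wide, over its start. Bmp4, a ligand of the outflow tract and pharynx, was not open at its own start in this list: its single region (chr14:47056081-47056940, 860 bp) lay 46166 bp upstream, beside the start of the noncoding gene Gm15221. Bmp5 had a single region in its own intron, 5648 bp downstream of the TSS. The only region given to Bmp3, at +86457 bp, lay in an intron of Prkg2 and 2960 bp from the start of Prkg2. Bmp10, a ligand of the trabecular heart muscle, had no region, and the nearest, assigned to Aplf, was 243185 bp from its start.

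Among the TGF-beta, activin and Nodal ligands, 5 of 9 had a region and 3 had a start region. The start regions belonged to Tgfb2, which is expressed in cushion-forming myocardium (chr1:188528803-188530191, 1389 bp), to Inhba, which encodes an activin subunit (chr13:16103335-16104751, 1417 bp), and to Gdf1, a partner of Nodal in left-right patterning (chr8:72853207-72855158, 1952 bp, the widest of the group). The Gdf1 region lay in an intron that Gdf1 shares with Lass1, so the region cannot be given to either gene alone. Inhba had 3 further regions, at -80111, +684822 and +793843 bp, the last being the farthest of the group (chr13:16897060-16897995, 936 bp). Gdf11 had 1 region in its own intron at +2558 bp, and Inhbb, a second activin subunit gene, had 1 at +116587 bp, although a region assigned to Ralb was nearer to its start, at 82556 bp.

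Tgfb1, Tgfb3, Nodal and Gdf3 had no region. The nearest region to Tgfb1, a ligand made by endothelial and blood cells, was 6266 bp from an annotated start and assigned to B9d2. The distance was 57920 bp for Nodal (region assigned to Lrrc20), 59494 bp for Gdf3 (Nanog) and 138076 bp for Tgfb3 (Gpatch2l). Of the 3 TGF-beta genes, Tgfb2 was thus the one with a region.

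**Figure D2:**
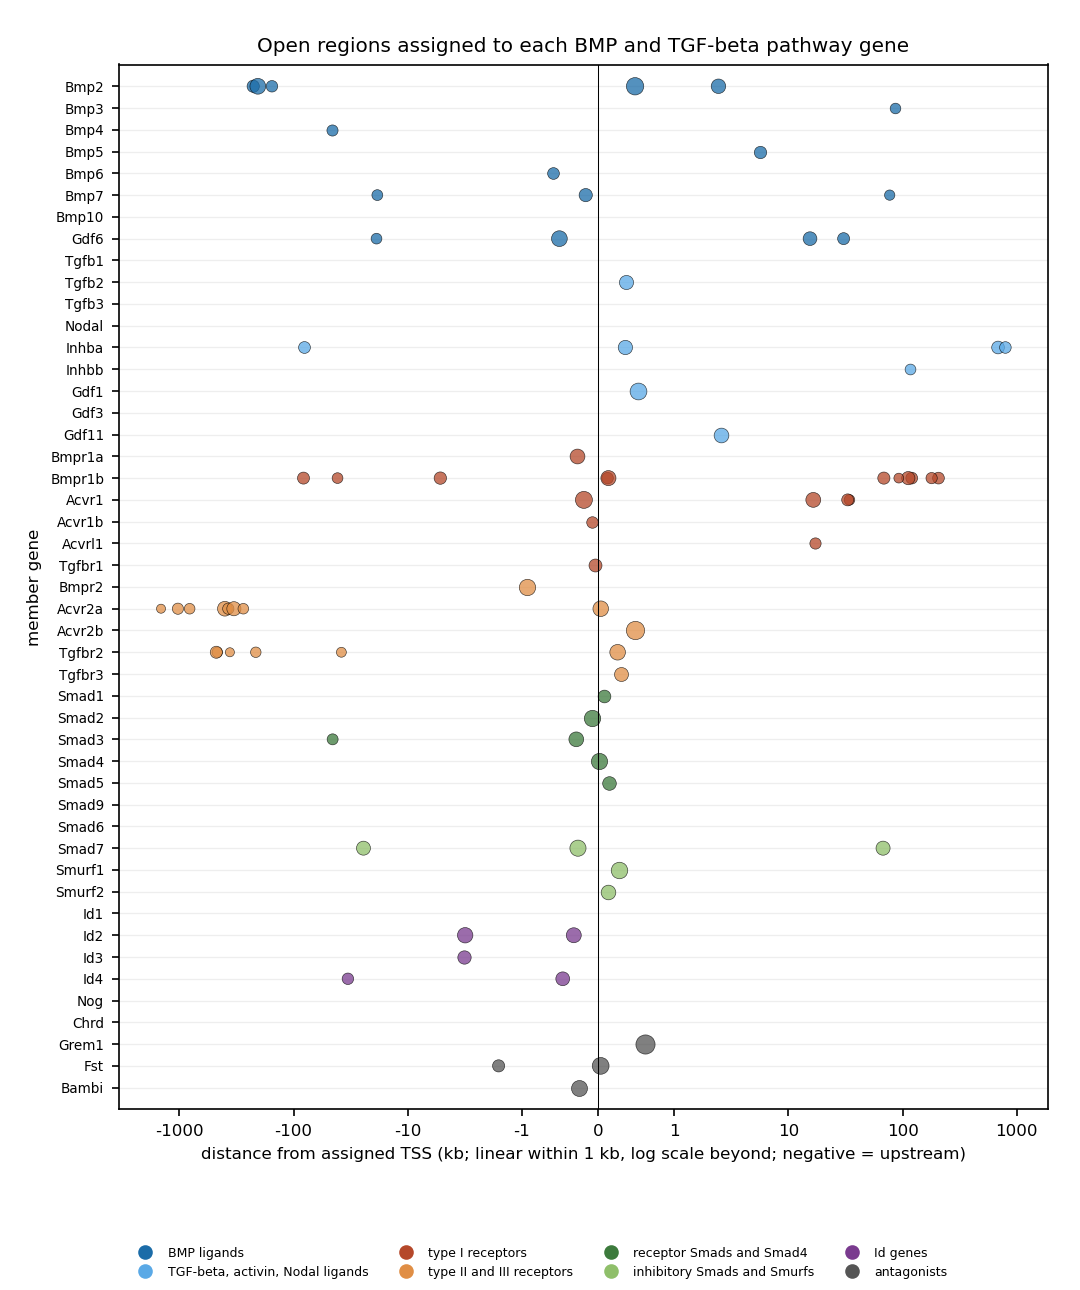
Distance of the 80 regions (points) from the assigned TSS in kb, linear within 1 kb and logarithmic beyond, for each of the 47 members, with negative values upstream and larger points for wider regions. Bmpr1b with 11 regions, Acvr2a with 8 and Tgfbr2 with 6 have the most points, and 10 rows are empty.

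Each of the 11 receptor genes among the members had a region (100%, 74.1 to 100%), and 10 had a start region. They held 36 of the 80 regions. Of the type I receptors, which pass the signal to Smads, Bmpr1b, a BMP receptor, had 11 regions, the most of any member, within 486 kb of chromosome 3. Regions lay at 2 alternative starts 238 kb apart, 1 at chr3:141831270-141832842 (1573 bp) and the other at chr3:141593970-141594885 (916 bp, the narrowest start region of all members). Of 5 annotated starts of Bmpr1b, 4 were inside a region. The other 9 regions were at -81768, -41165, -5181, +68500, +92583, +112118, +120185, +179459 and +206042 bp, each from the Bmpr1b start to which the list assigned it. The 4 farthest downstream, out to chr3:141388031-141388990, lay in introns of the neighboring gene Unc5c, whose own start was nearer to them than that of Bmpr1b. The region at +92583 bp, in an exon of Bmpr1b, was also nearer to the start of Unc5c, at 49153 bp.

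Acvr1, which encodes the BMP receptor ALK2 of the atrioventricular cushions, had 4 regions. The start region was 1999 bp wide (chr2:58418426-58420424), the widest of the type I receptors, and the other 3, at +16510, +33037 and +34241 bp, lay in its introns and nearer to other annotated Acvr1 starts. Bmpr1a, the main BMP type I receptor of cardiac mesoderm, had 1 region of 1518 bp at its start, Tgfbr1 had 1 of 1163 bp and Acvr1b, an activin receptor gene, had 1 of 924 bp. Acvrl1, an endothelial receptor gene, was the exception among the receptors: its single region (chr15:100975739-100976618, 880 bp) lay 17225 bp downstream, across the 3' end of the gene.

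All 5 type II and III receptors had a start region. Acvr2a, a receptor for activins and BMPs, had 8 regions, 1 over its start (chr2:48668826-48670503, 1678 bp) and 7 upstream, at -275059, -332713, -372557, -398924, -811998, -1028116 and -1445644 bp. The last (chr2:47223702-47224268, 567 bp) was the farthest from its TSS among all member regions, and 2 lay in introns of Gm13481. Coding starts on either side of Acvr2a were 3793 kb apart, the longest such interval among the members. Tgfbr2, the TGF-beta type II receptor, had 6 regions: 1 over its start (chr9:116083381-116085067, 1687 bp) and 5 upstream, at -38088, -213887, -360612, -464600 and -474266 bp. The last 2 lay in introns of Rbms3, and the last 3 were nearer to the start of Rbms3 than to that of Tgfbr2.

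Acvr2b had the widest receptor region, 2326 bp over its start (chr9:119310623-119312948). Bmpr2, the BMP type II receptor mutated in pulmonary arterial hypertension, had 1 region of 1860 bp at -930 bp, which was the start region nearest to the 1 kb limit. By the annotation of the same build its center was 1288 bp upstream of the nearest Bmpr2 start, and it contained none. Tgfbr3, the coreceptor betaglycan, had 1 region of 1355 bp at its start.

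The receptor Smads and Smad4 were open mainly at their starts: 5 of 6 genes had a start region, and 1 of their 6 regions lay farther away. Smad1 and Smad5, of the BMP branch, had start regions of 1119 bp (chr8:81922724-81923842) and 1288 bp (chr13:56803917-56805204). Smad2 and Smad3, of the TGF-beta and activin branch, had start regions of 1861 bp (chr18:76400343-76402203, the widest of the group) and 1514 bp (chr9:63605331-63606844). Smad4, the partner shared by both branches, had 1 of 1831 bp (chr18:73862473-73864303). All 5 contained an annotated start. The distant region belonged to Smad3 (chr9:63650822-63651658, 837 bp, -45439 bp). Smad9, the third BMP Smad, had none, and the nearest region was 20386 bp away and assigned to Exosc8.

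The inhibitory Smads were unlike each other. Smad7, which blocks both branches, had 3 regions: 1803 bp over its start (chr18:75525854-75527656), 1354 bp at -24399 bp, and 1370 bp at +67413 bp in an exon of Ctif, the farthest of this group. Smad6, which blocks mainly BMP signals and is known for its role in the outflow tract, had no region, and none lay within 100 kb of its starts. The nearest, 157230 bp away, was assigned to Snapc5. The ubiquitin ligase genes Smurf1 and Smurf2 had 1 start region each, of 1889 bp (chr5:145725484-145727372, the widest of the group) and 1483 bp (chr11:106781163-106782645).

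Of the Id genes, Id2 and Id4 had a start region, Id3 had a region upstream only, and Id1 had none. Id2, an early gene of the second heart field and of the conduction system, had a region of 1554 bp over its start (chr12:25780500-25782053) and, 1222 bp away, a second of 1644 bp at -3140 bp (chr12:25783276-25784919), the widest of the group. Id3 had 1 region of 1236 bp at -3239 bp (chr4:135695881-135697116). Id4 had a start region of 1320 bp (chr13:48355673-48356992) and a region at -33398 bp (chr13:48322941-48323855, 915 bp), the farthest of the group, both within an intron of A330033J07Rik. The nearest region to Id1 was 28422 bp from its start and assigned to Mcts2.

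Among the antagonists, Grem1, Fst and Bambi had start regions and Nog and Chrd had no region. Grem1, a secreted BMP antagonist, had the widest region of all 80 (chr2:113596919-113599464, 2546 bp). Fst, which encodes the activin-binding protein follistatin, had a start region of 1955 bp (chr13:115248148-115250102) and, 144 bp from it, a second of 1026 bp at -1600 bp. Bambi, a pseudoreceptor without kinase domain, had 1 of 1769 bp at its start (chr18:3506821-3508589). The nearest region to Nog, the noggin gene, was 115483 bp away and assigned to Gm525, and that of Chrd, the chordin gene, was 15430 bp away and assigned to Polr2h.

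The 10 members without a region did not share a CpG-poor start. The CpG content around the most CpG-rich annotated start was over the median of all coding genes for 6 of the 10, with 12.2 CpG per 100 bp for Nog, 9.09 for Chrd, 8.09 for Smad6 and 7.49 for Tgfb1, and it was 2.80 for Bmp10 and 2.30 for Gdf3. For the members with a start region it was over that median for 27 of 30. A region within 100 kb of a start, assigned to another gene, was found for 6 of the 10, and Bmp10, Tgfb3, Smad6 and Nog had none. The 3 libraries had to share a region for it to be listed, so absence from the list does not show closed chromatin.

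The regions were unevenly spread over the members. The 37 members with a region had 2.16 ± 2.23 regions each (SD over genes), with a median of 1, and all 11541 genes with a region had 1.49 ± 1.10, also with a median of 1. A single region was held by 24 members (64.9% of those with a region), against 73.2% of all genes with a region. At the other end, 4 members, Bmpr1b, Acvr2a, Tgfbr2 and Bmp2, had 5 or more regions. They were 10.8% of the members with a region, against 2.61% of all genes with a region. Of all coding genes, with a region or not, 1.26% had as many. These 4 members held 30 of the 80 regions (37.5%), whereas genes with 5 or more regions held 11.1% of all regions, and 18 of the 21 member regions beyond 100 kb were theirs.

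The number of regions rose with the room around the gene, measured as its territory, the distance between the starts of the coding genes on either side. Median territory was 89.8 kb for the 10 members without a region, 205 kb for the 24 with 1, 426 kb for the 9 with 2 to 4, and 1247 kb for the 4 with 5 or more. Spearman's rho between territory and the number of regions was 0.58 over the 47 members and 0.54 over the 37 with a region, given as a description across genes, which are not independent replicates. A gene with a large territory is also the nearest gene for more of the genome, so the 2 quantities share how regions were assigned. Some members did not follow the order. Acvr1 had 4 regions in a territory of 97.2 kb, Smad6 had none in 359 kb, and Id2 had 2 in 1440 kb. Territory was measured outward from a gene's outermost annotated starts, so it can end within the gene. That is so for Acvr1, whose annotated gene (chr2:58241055-58419568) is longer than its territory, so 97.2 kb is not the room around the whole gene.

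**Figure D3:**
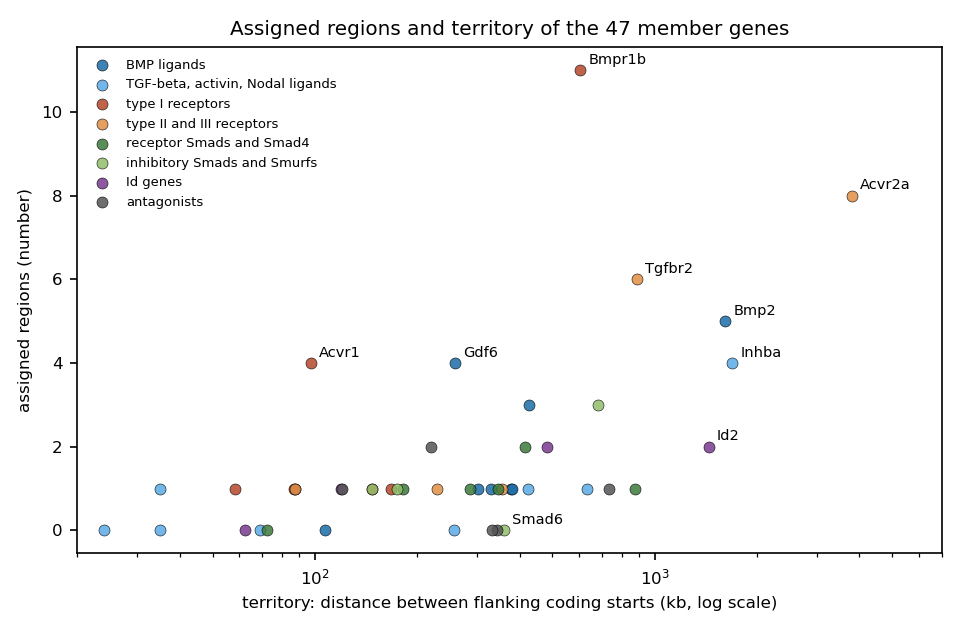
Number of assigned regions against territory (kb, log scale) for the 47 members, colored by role. Members with 5 or more regions lie between 602 and 3793 kb, and those without a region between 24.0 and 359 kb.

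A smaller share of the member regions than of all regions lay at a start, a comparison for which no test was made. Of the 80, 31 (38.8%, 28.8 to 49.7%) were start regions, against 52.9% of all 17164 regions, and 21 lay beyond 100 kb (26.3%, against 14.9%). Outside the 4 members with 5 or more regions, 26 of 50 member regions (52%) were start regions. Those 4 were set apart by their number of regions, and the share of all regions without such genes was not computed. The 52% therefore has no matching share beside it. Of the 49 distant regions, 28 (57.1%) were upstream and 21 downstream of the TSS, where 45.5% of all distant regions were upstream. Acvr2a held 7 of the 28 and Tgfbr2 held 5. By the midpoint, 27 were intergenic, 17 in introns, 7 of them of the member itself, and 5 in exons, 4 of them of the member. For 10 of the 49 (20.4%), the nearest start of a coding gene was that of another gene. Conversely, regions within 100 kb of a member start, or in its body, were assigned to other genes around 29 of the 47 members, 74 in all when summed over members. The assigned gene is therefore a label of position, and which gene a region acts on was not measured.

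The median width of the 31 member start regions was 1573 bp (interquartile range 1337.5 to 1860.5 bp, from 916 to 2546 bp), against 1294 bp for all start regions. In the 49 distant regions the median was 957 bp (567 to 1731 bp), against 950 bp for all distant regions. Members had 3 start regions of 2 kb or more, those of Grem1, Acvr2b and Bmp2, which was 9.68% of 31, while 9.97% of all start regions were that wide. Base composition differed in the same places: member start regions had a median GC content of 63.5% and 8.27 CpG per 100 bp, against 58.1% and 5.93 for all start regions, and distant ones had 47.8% and 1.48, against 47.5% and 1.35. The part of CpG content in the width was not tested.

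**Figure D4:**
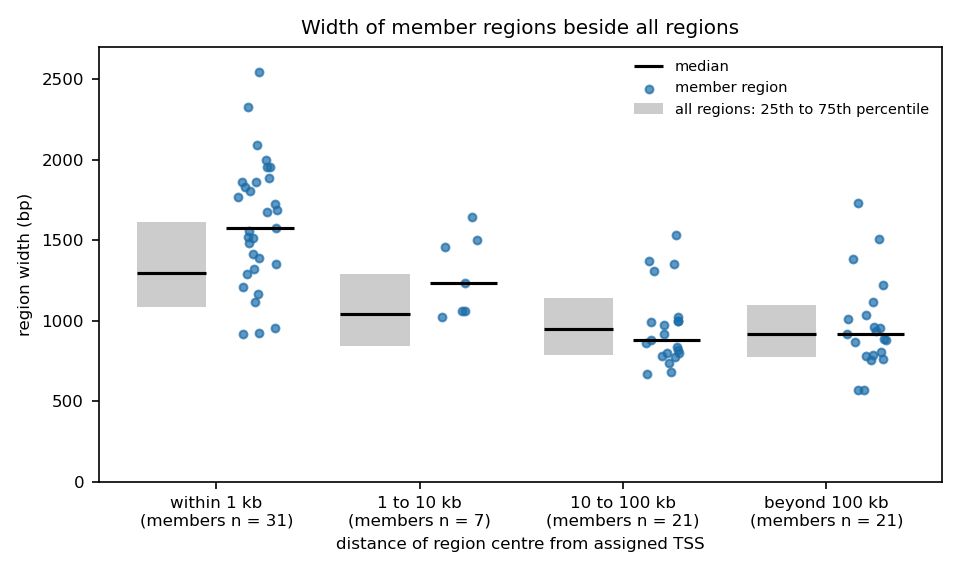
Width (bp) of member regions (points, with their median as a line) beside all regions of the same distance class (gray box, 25th to 75th percentile, with median). The median of members at the start is 1573 bp against 1294 bp, and in the farthest class, beyond 100 kb, it is 920 bp against 919 bp.

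The Smad pair shown above was found in 5 member regions when the whole region was searched. These were the upstream regions of Id2 and Id3, the downstream region of Bmp7, and the start regions of Grem1 and Acvr1b, the last 2 being named after their values were seen. The sites read GGCGCCAGAGAGTCT for Id2, GGCGCCAGGCTGTCT for Id3, GACGGCCAGAGGTCT for Bmp7, GGCGCCTGCAGGTCT for Grem1 and GCCGACCGACAGTCT for Acvr1b. The Id3 site was 36 bp from the center of its region, and those of Bmp7, Acvr1b, Grem1 and Id2 were 200, 211, 298 and 371 bp from it. The Id2 and Id3 sites lay at -2769 and -2950 bp from their annotated starts, and both read along the gene's own strand.

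The pair was in 3 of 49 distant member regions (6.12%), against 86 of all 8081 (1.06%), and in 2 of 31 start regions (6.45%), against 394 of 9083 (4.34%). Of the 3 distant ones, 2 were the upstream regions of Id2 and Id3. The pair is known in part from BMP response elements of Id genes, so the distant share is not independent of the choice of word. With GGCGCC exactly as the left word, a setting chosen after seeing the data, 12 of the 8081 distant regions held the pair, the upstream regions of Id2 and Id3 among them. Another was a region at -3366 bp from Msx2, a homeobox gene that is a known BMP target but not a member. The rest were assigned to 4930503B20Rik, 4930568G15Rik, Ccdc42, Fos, Gclc, Hmga2, Hs3st4, Lamp5 and Rims1. In the start regions the strict pair was found in 37 of 9083, Grem1 being the 1 member. The counts are too small for a comparison, and a match does not show that a Smad was bound.

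The 4 Id genes were searched further, in the 5 kb on either side of the most upstream annotated start, whether open or not. Each had at least 1 pair, 9 in all, where 6.53% of 22236 coding genes had any, and each had at least 1 with GGCGCC, where 0.553% of the coding genes did. BMP response elements of Id genes are among those from which the pair is known, so its presence there is not independent of the choice of word. Of the 9 sites, 2 lay in a listed region, those printed for Id2 and Id3. Id1 had GGCGTCTAACGGTCT at -1038 bp and GGCGCCTGGCTGTCT at +3227 bp from its start, and neither was in a region. Id3 had another, GACGCCAGTGAGTCT, at -175 bp from its most upstream annotated start, where no region was listed. The Id3 TSS used in the list lay 325 bp farther downstream. Id4 had GGCGCCAGTTAGTCT 1470 bp downstream, outside its start region. Downstream of the start, Id2 had a site at +3041 bp and Id3 had sites at +1303 and +4491 bp, each with GGCGCC and none in a region. The Id2 and Id3 sites in open regions were both about the same distance upstream of the gene, a likeness of 2 sites only. The sites nearer to the starts of Id1 and Id3 were not in the list.

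For a comparison at equal length, 6 words were searched in the central 300 bp of each region. GGCGCC was in 13 of 31 member start regions (41.9%, 26.4 to 59.2%), against 28.5% of all start regions, and in 3 of 49 distant ones (6.12%), against 6.93%. The word CACGTG, an E-box bound by bHLH factors, was in 7 start regions (22.6%, 11.4 to 39.8%), against 8.15%, and in 4 distant regions (8.16%), against 4.69%. GATAA, bound by GATA factors, was in 11 distant regions (22.4%), against 29.7%, and TAATTA, a homeobox word, in 3 (6.12%), against 8.11%. The palindrome GTCTAGAC, bound by Smad3 and Smad4, was in 1 start region (3.23%), that of Smad7, against 0.187% of all start regions, and in none of the 49 distant regions, with a 95% Wilson upper limit of 7.27%. In that window the pair was in none of the 31 member start regions, with a 95% Wilson upper limit of 11.03%, and in 1 of the 49 distant ones, that of Id3. The member start regions were also the more GC-rich ones, as given above, and the part of base composition in these shares was not tested.

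**Figure D5:**
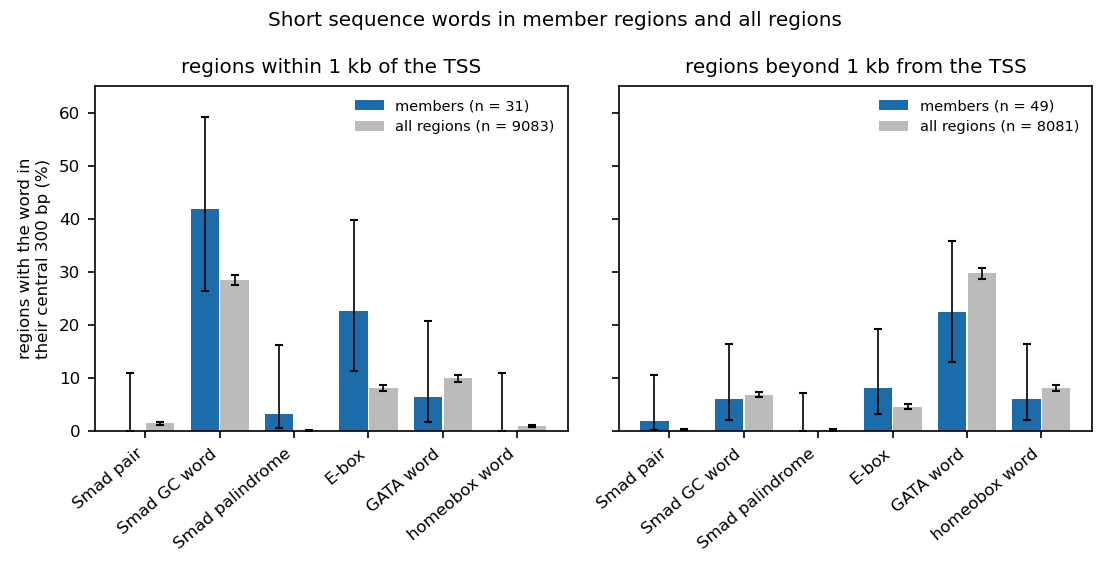
Share of regions (%) with each word in the central 300 bp, in member regions and in all regions, within 1 kb of the TSS (left) and beyond (right). Error bars are 95% Wilson intervals. GGCGCC (Smad GC word) reaches 41.9% in member start regions against 28.5%, and the member intervals are wide because they rest on 31 and 49 regions.

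In promoters taken from RefSeq (assembly GRCm38.p6, 250 bases before to 50 after each start), 38 promoters matched 32 members, whether the gene had a region or not. The other 15 members, which do not enter these shares, were Bmp2, Bmp3, Bmp7, Gdf6, Tgfb3, Gdf3, Acvrl1, Tgfbr3, Smad2, Smad4, Smad7, Id1, Nog, Fst and Bambi. GGCGCC was in 13 of the 38 promoters (34.2%), against 11.9% of 32851 promoters, and the pair in 3 (7.89%), against 0.667%. One of the 3 was the promoter of Smad6, which had no region. The pair share rests on those 3 promoters, and the part of base composition in both shares was not tested.

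The rest of the pathway was covered by 60 further genes, of which 29 (48.3%) had a region and 23 (38.3%) a start region. These shares were close to the 49.3% and 40.6% of all coding genes. Cofactors and repressors of Smads had a region for 13 of 14 genes, 12 at the start, whereas 2 of 16 further ligands and 2 of 8 further receptors or coreceptors had one. Antagonists had a region for 7 of 12 genes, and genes of ligand processing and matrix binding for 5 of 10. The most regions were found for Ltbp1, which encodes a latent TGF-beta binding protein (8, of which 2 at the start), and for Tgif1, a Smad corepressor gene (7, none at the start).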

How the data were processed

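Chromatin accessibility was measured by ATAC-Seq in dissected E8.75 hearts with pharyngeal mesoderm, with 3 libraries for each of the 3 genotypes that the labels name. Values were used for the control group only, as 1 deposited list. According to the methods, reads were mapped by the authors to mm9 with bowtie2, filtered with samtools, cleared of duplicates with Picard 1.136, and peaks were called with MACS14 without a model and with a fixed shift. ENCODE blacklist regions were removed, and bedtools 2.15 gave the regions common to the replicates (1 bp overlap). The values deposited by the authors are positions and distances to a TSS in bp, with no count, signal or score. No offset for the Tn5 insertion is stated, so widths include the extension by the shift. Requiring a region in each library favors strong sites. How genes were assigned is described for ChIP-Seq peaks, and for these regions it is not given in the sources used here.

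The 17432 rows were reduced to 17164 distinct regions (chromosome, start and end, 1-based), and 0 columns of values were left unmapped. Sequence was read from NCBIM37 (equal to mm9) and starts from GENCODE vM1. Of the 80 member regions, 60 had a deposited distance within 100 bp of the distance to a GENCODE start of the same gene. RefSeq tables of GRCm38.p6 served for gene names and types and for promoter sequences, and none of their coordinates were used (11161 genes matched by accession, 374 by symbol or synonym, 6 unmatched). Shares carry 95% Wilson intervals, which cover counting error only, and no test was made. The text gives in full the members with the 5 highest region numbers, the widest and the farthest region of each role, each start region of Id and Smad genes, and each member without a region, and it prints sequences at Id starts and up to 4 member regions with a Smad word. The result of 1 further gene is not reported here. The members and lists were chosen with earlier results of these data known. Alternatives were a list of wide regions, all rows, other assignments and limits, other motif windows, and leaving out chromosomes X and 18. Scripts (Python 3.11.15, pandas 2.3.3, scipy 1.17.1, pysam 0.24.0) were tested on simulated data.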

Additional observations from a re-analysis of the deposited data

How the results depend on the processing

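Of 23 alternatives, 15 left the value within its 95% interval, or within 1.5 times for a count or for regions per member, and 8 moved it. With only the wider regions kept, of 1123 bp (the median of all) or more, members with a region fell to 61.7%, regions assigned to members to 39, regions per member with a region to 1.34, and the median width rose to 1532 bp, while 69.2% of the member regions left were at a start. These moves follow from the construction, since fewer regions are kept and distant ones are narrower. Counting any region within 100 kb of a start, whatever its assigned gene, 91.5% of members had one. For this setting and for the wider regions alone, the share of all coding genes was not computed. GGCGCC was in 83.9% of member start regions over the whole region, against 56.5% of all start regions. In the central 150 bp it was in 25.8%, against 16.2%, as the searched length sets the chance of a match. No paired analysis was possible because the list is 1 consensus of the 3 control libraries and carries no replicate number, and leaving out a replicate was not possible for the same reason. Depth is unknown, so how many regions deeper libraries would add was not tested.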
